A study of Mus musculus with 16 samples.

Results

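The 9 genes described here are Dlx1, Dlx2, Dlx5, Dlx6, Sp8, Meis2, Tshz1, Pax6 and Th, taken by symbol from a table of 57010 genes. The first 8 encode transcription factors of the olfactory bulb interneuron lineage. Th encodes an enzyme that a subset of those interneurons makes and is no transcription factor. All 9 were among the 18227 genes with enough reads to be tested. They were measured by bulk sequencing of total RNA depleted of ribosomal RNA from CD11b-positive cells, which magnetic beads had pulled from olfactory bulbs of mice aged 2 months to obtain microglia, the resident macrophages of the brain. There were 4 libraries each of WT males, WT females, APP-NL-G-F males and APP-NL-G-F females. WT mice were C57BL/6J. APP-NL-G-F mice, kept on the same background and also called knock-in mice here, carried an App gene altered by 3 disease mutations, so the allele was present in every cell that expresses App and not in microglia alone. No label ties a library to an animal, and the study states both 8 mice per genotype and technical replicates for its sequencing, so the p-values cover the spread between these libraries, part of which may be technical.

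Olfactory bulb interneurons are mostly GABAergic granule and periglomerular cells, and in rodents new ones arrive throughout life as neuroblasts from the subventricular zone. Homeobox proteins of the Dlx family set their inhibitory fate, while Sp8, Meis2, Tshz1 and Pax6 act in the migration, survival or subtype choice of later stages. Th is the rate-limiting enzyme of catecholamine synthesis. In the bulb it marks dopaminergic periglomerular cells, and it is also made by noradrenergic neurons of the locus coeruleus, whose axons reach the bulb. Microglia are not known as a source of these genes, so each level is that of the whole isolate. In such bulk libraries fewer cells of a type and less RNA per cell cannot be told apart.

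Several of the genes are neighbours, and a few share a short element ahead of their start. Dlx1 and Dlx2 lie on chromosome 2 and point toward each other across 9.43 kb, and Dlx5 and Dlx6 do so on chromosome 6 across 9.23 kb (GRCm39, GENCODE vM39). Meis2 and Pax6 are also on chromosome 2, while Th is on chromosome 7 and Sp8 on chromosome 12. The 250 bases before the canonical start of each gene were searched on both strands for 5 motifs. The cAMP response element TGACGTCA was found ahead of 3 of the 9 genes, Dlx6, Pax6 and Th, and ahead of 2.05% of 13672 tested protein-coding genes. It is shown here in 30 bases of sequence from the strand of each gene, with the element in capitals.
Dlx6 (chr6:6862880-6862909, plus strand): cggtgcgcctgTGACGTCAgggggcgactg
Pax6 (chr2:105499154-105499183, plus strand): tctggccgccgTGACGTCAtccgcgcccgg
Th (chr7:142453759-142453788, minus strand): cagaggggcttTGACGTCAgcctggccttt
The element began 98 bases before the start of Dlx6, 69 before that of Pax6 and 26 before that of Th. The GC box GGGCGG was ahead of 4 members (Dlx2, Dlx6, Tshz1 and Th) and of 48.2% of all promoters searched. The Meis core TGACAG was ahead of Tshz1 and of 13.8% of all promoters. The homeodomain core TAATTA and the TATA box TATAAA were ahead of none of the 9 and of 3.03% and 7.37% of all. None of these matches is a test of binding. The whole window ahead of Dlx6, the gene with the highest genotype difference of the 9, is given with both of its motifs, a GC box and the cAMP response element, in capitals.
Dlx6 (chr6:6862739-6862988, plus strand): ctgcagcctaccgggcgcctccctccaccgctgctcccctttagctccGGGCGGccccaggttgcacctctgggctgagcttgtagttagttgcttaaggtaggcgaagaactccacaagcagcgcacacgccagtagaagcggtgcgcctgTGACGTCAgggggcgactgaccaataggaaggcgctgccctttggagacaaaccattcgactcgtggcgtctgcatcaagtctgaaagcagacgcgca
This window lies within the span of Dlx6os1, a noncoding gene of the opposite strand. The GC content of the 9 windows ran from 41.6% for Tshz1 to 67.6% for Meis2, against a median of 56.8% over all promoters.

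Between 9052932 and 18117286 counts were assigned per library, and a count of 0 would allow 0.166 to 0.331 CPM (the unit used here, in which counts are scaled by library total and TMM factor). No member was at 0 in any library. The lowest count was 19, for Dlx6, and the highest 1768, for Meis2. The microglial identity of the isolates was checked with 14 microglia markers, which summed to between 23532.5 and 28149.7 CPM per library. The 9 members together summed to between 145.7 and 239.2 CPM in WT libraries (median 192.7) and between 190.2 and 324.0 in knock-in libraries (median 263.4). Both ranges lay far below the microglia markers.

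Levels of different genes were compared per kilobase of their canonical transcript. Meis2, a TALE homeobox factor, was the highest, with a median of 23.1 CPM per kb over 16 libraries (range 11.6 to 35.6). The zinc finger factor Tshz1 followed with 13.8 CPM per kb (10.2 to 17.4), so the ranges of Meis2 and Tshz1 overlapped. Dlx1 came next with 4.21 CPM per kb (2.59 to 5.66), and its highest library was below the lowest of Tshz1. The other 6 genes had medians between 1.16 CPM per kb for Dlx2 and 2.703 for Dlx5, with overlapping ranges. The range of Dlx1 overlapped those of Dlx5, Sp8 and Pax6. With all annotated exons merged, Tshz1 (12.9) stood above Meis2 (7.32), and Pax6 fell from the fifth place to the ninth, because the merged length of Meis2 and Pax6 is several times the canonical length. Dlx1 kept the third place under both lengths.

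**Figure D1:**
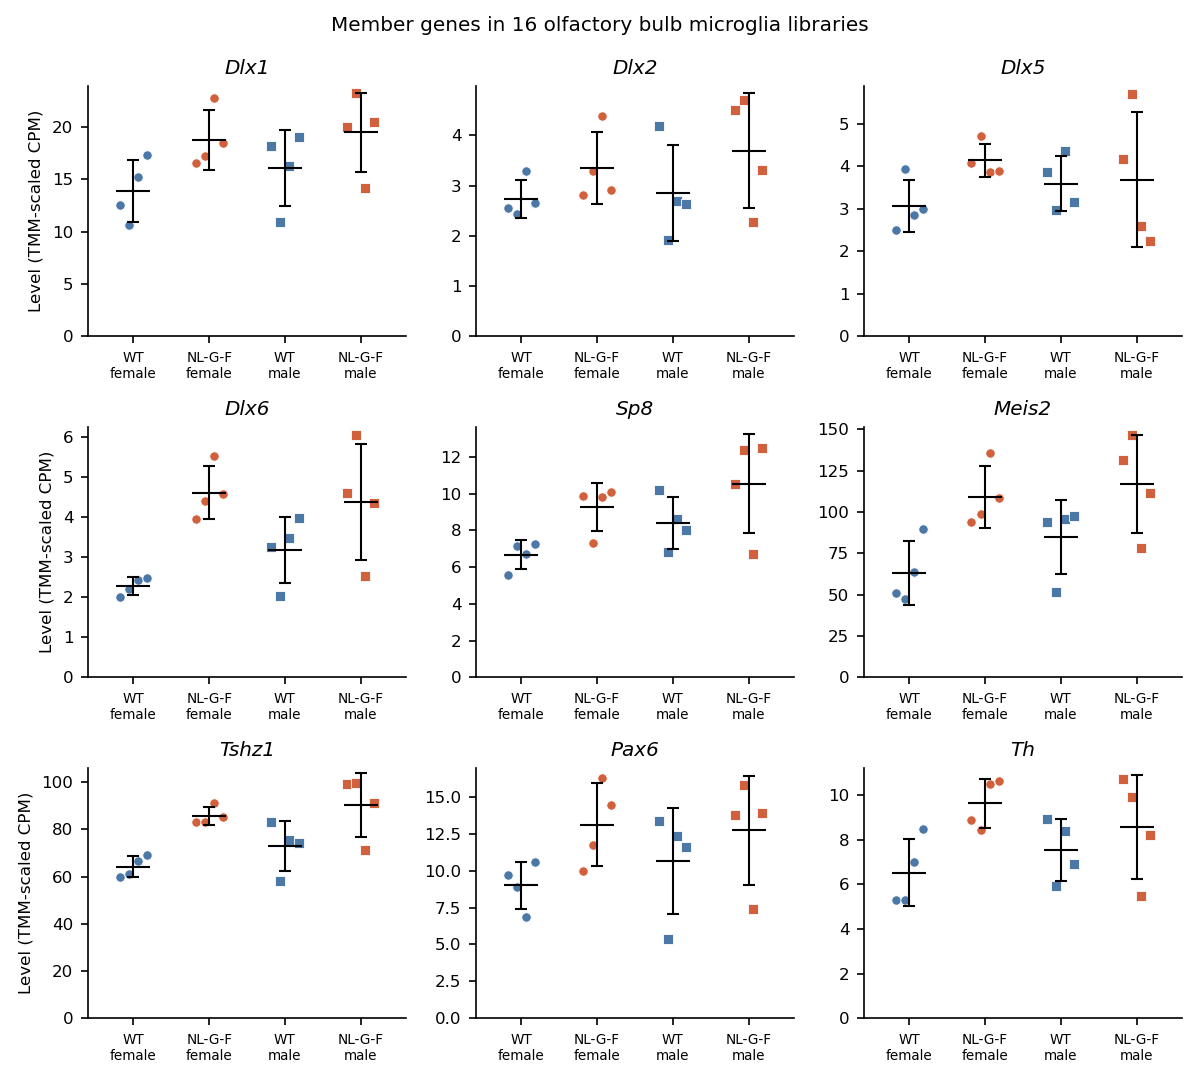
Level of each of the 9 member genes (y axis, TMM-scaled CPM, starting at 0) in the 16 libraries. Circles are females, squares males, blue WT and orange APP-NL-G-F. Black bars give the mean and SD of the 4 libraries of a group. All 4 APP-NL-G-F female libraries lie above all 4 WT female libraries for Dlx6, Sp8, Meis2 and Tshz1, while in males the 2 genotypes overlap for every gene.

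The main question was whether these genes differed between knock-in and WT isolates. Dlx6 and Meis2 rose in knock-in libraries, by 0.75 and 0.63 on the log2 scale. All 9 members had a log2 fold change above 0, from 0.25 for Dlx5 to 0.75 for Dlx6, with a median of 0.38 against a median of 0.00 over all genes tested (9034 of 18227 genes, 49.6%, were above 0). A gene was called at a false discovery rate (FDR, Benjamini-Hochberg over all genes tested) below 0.1 together with a log2 fold change beyond 0.5 in size in edgeR's quasi-likelihood test with sex as a term. With this rule 2 of 9 members were called, and 4.33% of all genes were called higher. With the FDR alone 5 of 9 members passed, namely Dlx1, Dlx6, Sp8, Meis2 and Tshz1, and 6.95% of all genes passed as higher. Without adjustment 7 of 9 had a p below 0.05, with Dlx2 and Dlx5 as the exceptions, and 12.3% of all genes had one and were higher.

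Dlx6 had the largest difference of the 9. Its level was 2.00, 2.20, 2.43 and 2.48 CPM in the 4 WT female libraries and 3.95, 4.40, 5.51 and 4.57 in the 4 knock-in female libraries. In males it was 3.25, 2.02, 3.47 and 3.96 CPM in WT and 4.59, 6.04, 2.52 and 4.36 in knock-in libraries. The females of the 2 genotypes did not overlap, and in males only knock-in replicate 3 fell among the WT libraries. Over both sexes the mean rose from 2.73 ± 0.738 to 4.49 ± 1.05 CPM (SD, n = 8 each), and the log2 fold change was 0.75 ± 0.179 (SE, edgeR FDR = 0.0132). An exact permutation of genotype within sex, two-sided over 4900 arrangements, gave p = 0.00367, where the smallest possible value is 0.000408.

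Dlx5, the partner of Dlx6 at the same locus, missed the threshold. Its level ran from 2.50 to 4.37 CPM in WT (median 3.07) and from 2.25 to 5.71 in knock-in libraries (median 3.99). The knock-in range enclosed the WT range. The log2 fold change was 0.25 ± 0.179 (SE, edgeR FDR = 0.441), with a 95% interval of -0.13 to 0.62 that takes in both no difference and the 0.5 threshold. At 31 to 69 counts per library, Dlx5 is among the more thinly covered members.

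Neither gene of the other Dlx pair was called. The level of Dlx1 was 10.6 to 19.1 CPM in WT (median 15.7) and 14.2 to 23.2 in knock-in libraries (median 19.2). The ranges overlapped, with 4 of 8 knock-in libraries above the highest WT library. The log2 fold change was 0.35 ± 0.127 (SE, edgeR FDR = 0.0886), below the fold threshold. Dlx2 lay at 1.91 to 4.20 CPM in WT (median 2.65) and 2.27 to 4.72 in knock-in libraries (median 3.29), with a log2 fold change of 0.33 ± 0.180 (SE, edgeR FDR = 0.279). Dlx2 had only 21 to 57 counts per library.

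Meis2, which works with Pax6 and Dlx2 in dopaminergic periglomerular cells, was the second member called. It was at 51.3, 47.6, 63.5 and 89.9 CPM in WT females and 93.8, 98.9, 136 and 108 in knock-in females. WT males had 93.9, 51.4, 95.8 and 97.7 CPM and knock-in males 131, 146, 77.99 and 111. Again the females did not overlap, and WT male replicate 2 and knock-in male replicate 3 were the lowest of their groups. The mean rose from 73.9 ± 22.4 to 113 ± 23.3 CPM (SD, n = 8 each), and the log2 fold change was 0.63 ± 0.158 (SE, edgeR FDR = 0.0179, exact permutation p = 0.00694).

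Tshz1, a factor needed for new interneurons to leave the migratory stream, had the smallest p of the 9. Its level was 60.0, 61.3, 66.5 and 69.4 CPM in WT females and 83.1, 83.3, 91.1 and 85.4 in knock-in females. WT males had 83.3, 58.4, 75.5 and 74.5 CPM and knock-in males 99.2, 99.9, 71.1 and 91.3. Every knock-in library was above the WT median, and 5 of 8 were above the highest WT library. The log2 fold change of 0.36 ± 0.0738 (SE, edgeR FDR = 0.00468, exact permutation p = 0.00163) stayed under the fold threshold of 0.5, so Tshz1 was not called although its FDR was the lowest of the 9.

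Sp8, a zinc finger factor of periglomerular and granule cells, and Pax6, a paired-box factor of dopaminergic ones, had similar fold changes and unlike errors. Sp8 ran from 5.57 to 10.2 CPM in WT (median 7.22) and from 6.72 to 12.5 in knock-in libraries (mean 9.91), a log2 fold change of 0.41 ± 0.127 (SE, edgeR FDR = 0.0506). Pax6 ran from 5.34 to 13.4 CPM in WT (median 10.1) and from 7.39 to 16.3 in knock-in libraries (median 13.8), a log2 fold change of 0.41 ± 0.181 (SE, edgeR FDR = 0.170). The ranges overlapped for both genes. The exact permutation p was 0.0192 for Sp8 and 0.0816 for Pax6.

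Th was measured at 5.32, 5.32, 7.0 and 8.46 CPM in WT females and 8.90, 8.43, 10.5 and 10.6 in knock-in females. WT males had 8.91, 5.91, 8.41 and 6.91 CPM and knock-in males 10.7, 9.93, 5.46 and 8.22. The female groups overlapped narrowly and the male groups widely. The log2 fold change was 0.38 ± 0.144 (SE), equal to the median of the 9 members, and the edgeR FDR of 0.110 missed the threshold (exact permutation p = 0.0465). Of 11 other tested genes of dopamine synthesis, storage and breakdown, 0 were called by edgeR, 1 had an unadjusted p below 0.05, and the median log2 fold change was 0.02. That gene was the vesicular monoamine transporter Slc18a2 (edgeR FDR = 0.120), which had 0 to 12 counts per library. It was at 0 to 0.427 CPM in WT and 0.084 to 0.993 in knock-in libraries, and with so few counts no fold is given. Ddc, which converts the product of Th to dopamine, had only 2 to 13 counts per library. Its mean was 0.584 CPM in WT and 0.428 in knock-in libraries (edgeR FDR = 0.589), and for the same reason no fold is given. Among the higher expressed genes of the list, Etv1 (which also stands in the list of lineage factors), Qdpr and Pts had log2 fold changes of 0.04, 0.05 and 0.00. The dopamine transporter Slc6a3 had at most 6 counts in a library and was not tested, nor was Dbh of noradrenaline synthesis, with at most 5.

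**Figure D2:**
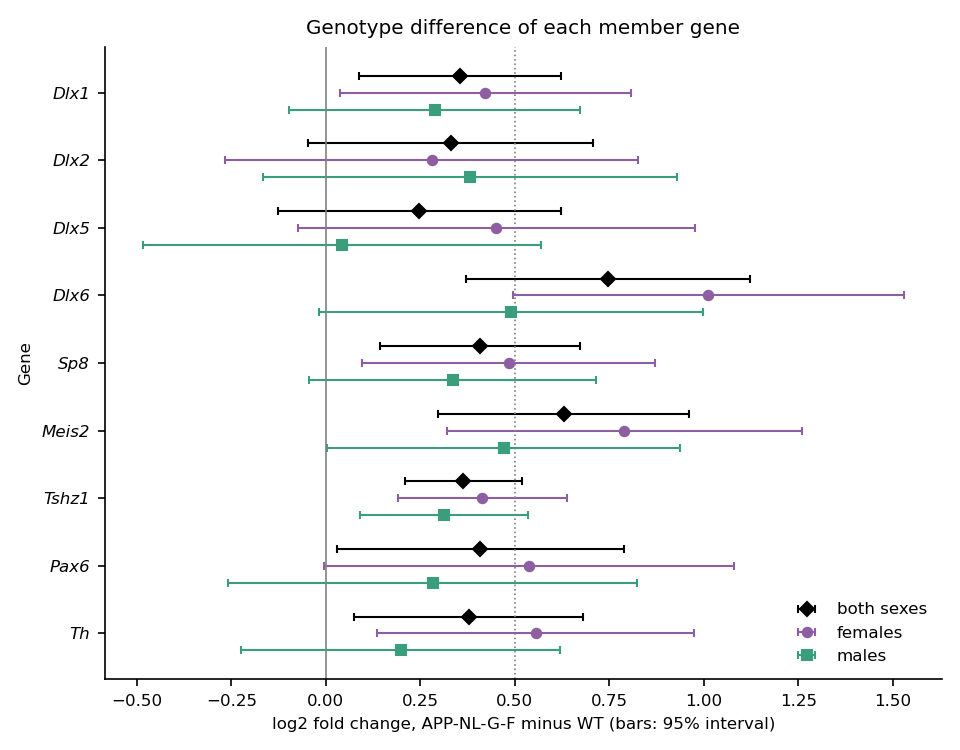
Log2 fold change of APP-NL-G-F against WT (x axis) for each of the 9 genes (y axis), over both sexes (black), in females (purple) and in males (green), with 95% intervals from edgeR. The dotted line marks the fold threshold of 0.5. The 9 estimates over both sexes lie between 0.25 and 0.75, and the intervals of females and males overlap for every gene.

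Of the noncoding genes that overlap members, 3 were called higher in knock-in libraries, where 4.33% of all genes were called higher. Dlx6os1 spans Dlx6 on the opposite strand without sharing exonic bases, and its level rose from 21.9 ± 7.42 to 36.8 CPM (log2 fold change 0.78 ± 0.184 SE, edgeR FDR = 0.0124). Dlx1as, antisense to Dlx1 over 60.2% of the exonic bases of Dlx1, rose by 0.74 on the log2 scale (FDR = 0.0215). G630016G05Rik, which overlaps 5.52% of the exonic bases of Meis2 from the other strand, rose by 0.68 (FDR = 0.0324). Dlx6os2 had 0.55 (FDR = 0.169) and was not called. Nor was a noncoding gene without a symbol in the span of Tshz1, which had 0 to 10 counts per library (FDR = 0.668). Pax6os1, with at most 4 counts in a library, was not tested. The protein-coding neighbour Elp4, which shares 21.1% of the exonic bases of Pax6, had 0.06 (FDR = 0.753). The library kit keeps the strand, but the setting used in counting is not given in the sources used here, so reads of Dlx1 and Dlx1as in particular may be divided wrongly between the 2 genes or left out.

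The sexes were then compared. In females Dlx6 rose by 1.01 ± 0.246 (SE, edgeR FDR = 0.0206) and Meis2 by 0.79 ± 0.223 (FDR = 0.0456) on the log2 scale, 2 of 9 members, where 2.82% of all genes were called higher. The call of Meis2 was lost without WT female replicate 1, WT female replicate 2 or knock-in female replicate 3, while that of Dlx6 was kept in every such fit. Without WT female replicate 4 the count was 4, with Dlx1 and Th added, and 6.75% of all genes were called higher. Tshz1 had 0.41 (FDR = 0.0278), and Th had 0.56 (FDR = 0.115). For 4 of 9 members every knock-in female library was above every WT female library (Dlx6, Sp8, Meis2 and Tshz1), and 5.21% of all genes showed the same. WT female replicates 1 and 2 had the highest mean log2 CPM of the astrocyte (6.18 and 6.48) and endothelial (4.19 and 4.55) lists described below. Their means of the mitral and tufted cell list were the lowest (1.53 and 1.58). The nearest other library was at 5.88, 3.82 and 1.77, in that order. The part of this makeup in the female values was not tested. In males 0 of 9 members were called by edgeR, DESeq2 or limma voom, 2 of 9 (Meis2 and Tshz1) had an unadjusted edgeR p below 0.05, and 0.0878% of all genes were called higher. Male libraries overlapped for all 9, and 1.83% of all genes did not overlap in that direction. All 9 log2 fold changes were nevertheless above 0 in each sex, with medians of 0.48 in females and 0.31 in males.

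The difference between the sexes was tested as an interaction. None of the 9 members was called by edgeR, DESeq2 or limma voom, 0 of 9 had an unadjusted edgeR p below 0.05, and 0.0274% of all genes were called. The largest interaction was that of Dlx6, at 0.52 on the log2 scale with a 95% interval of -0.20 to 1.25. That of Th was 0.36 (-0.24 to 0.95) and that of Dlx2 was -0.10 (-0.88 to 0.67). All 9 intervals took in 0, and each rests on 4 libraries per group.

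Other genes of the lineage were read from lists. Of 32 further transcription factors of the interneuron lineage, 24 were tested and 17 had a log2 fold change above 0, with a median of 0.25. Bcl11a, a zinc finger repressor, rose by 0.81 (edgeR FDR = 0.00447) and Meis1, a relative of Meis2, by 0.55 (FDR = 0.0157). Thus 2 of 24 were called, where 4.33% of all genes were called higher and 6.95% passed the FDR alone as higher. A further 8 had an FDR below 0.1 with smaller fold changes, among them Pbx3, a cofactor of Meis proteins (0.37, FDR = 0.0237), and Sp9, a relative of Sp8 (0.42, FDR = 0.0606). The highest expressed genes of the list included Sox4 (0.14, FDR = 0.106), Sall3 (-0.02, FDR = 0.903) and Nfix (-0.06, FDR = 0.389). Tshz2 and Tshz3, relatives of Tshz1, had -0.38 (FDR = 0.533) and -0.06 (FDR = 0.895). Gsx1, Gsx2, Neurod1, Vax1, Six3, Dlx3 and Dlx4 had at most 7 counts in a library and were not tested.

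The Dlx factors control the GABAergic phenotype. Over all genes 4.33% were called higher. Of 10 tested genes of the GABA and interneuron subtype list 3 were called, all higher in knock-in libraries. These were Synpr, a synaptic vesicle protein (0.87, edgeR FDR = 0.000819), Penk, the enkephalin precursor (0.59, FDR = 0.0329), and Tpbg, a membrane glycoprotein of granule cells (0.55, FDR = 0.0414). Both enzymes of GABA synthesis and the vesicular GABA transporter passed the FDR with smaller changes, Gad1 at 0.49 (FDR = 0.0205), Gad2 at 0.38 (FDR = 0.00417) and Slc32a1 at 0.39 (FDR = 0.0792). Calb2, which encodes calretinin of another interneuron class, had -0.01 (FDR = 0.968). Of 8 neuroblast genes 2 were called, Dcx (0.72, FDR = 0.00635) and Igfbpl1 (0.79, FDR = 0.0666), and the list had a median of 0.24.

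Mitral and tufted cells are the excitatory projection neurons of the bulb. Of 8 genes of mitral and tufted cells 0 were called and 0 had an unadjusted p below 0.05, and their median log2 fold change was -0.06. Reln, Cdhr1 and Slc17a7, the highest expressed of them, had 0.01, -0.10 and -0.13, with wide spreads (Reln at 74.5 ± 37.4 CPM in WT, SD, n = 8). Of 12 pan-neuronal genes 0 were called, 7 had an unadjusted p below 0.05 and 6 an FDR below 0.1, all higher, with a median of 0.28. Examples are Map2 (0.37, FDR = 0.0228), Syt1 (0.43, FDR = 0.00796) and Snap25 (0.38, FDR = 0.00512). The pan-neuronal list summed to 384.5 to 528.8 CPM in WT and 472.5 to 705.4 in knock-in libraries. It thus moved with the members, and a fit with this list as a term is described after the correlations. Of 14 microglia markers 0 were called and 1 had an unadjusted p below 0.05, with a median of -0.01.

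**Figure D3:**
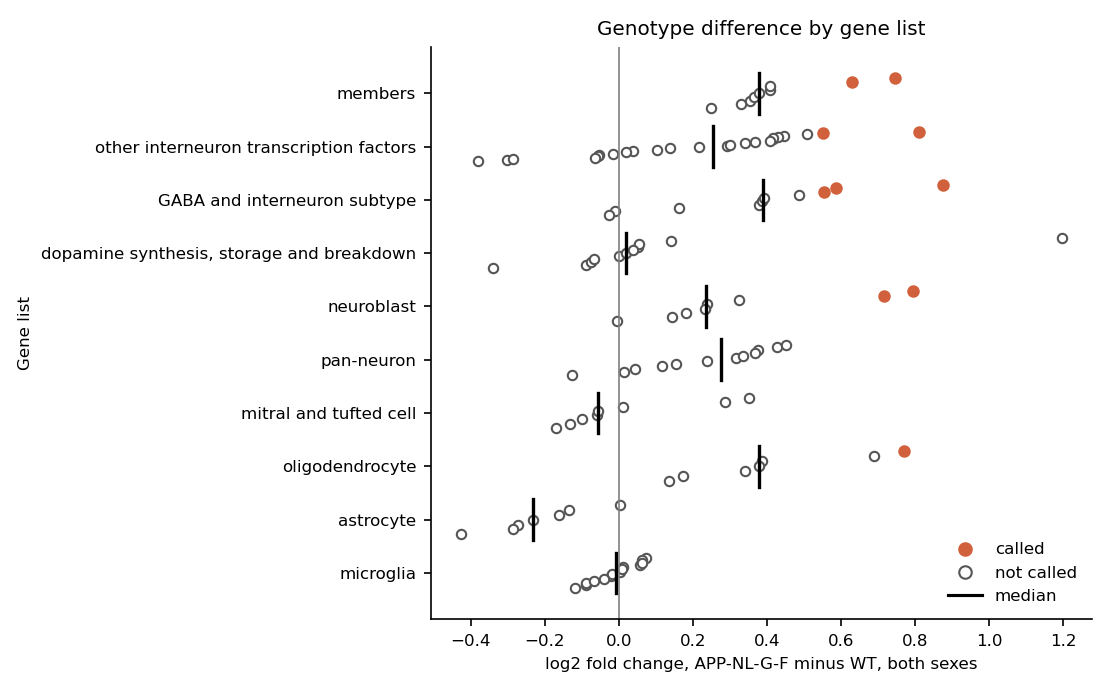
Log2 fold change of APP-NL-G-F against WT over both sexes (x axis) for each tested gene of 10 lists (rows). Filled orange points were called, open points were not, and the black bar is the median of the list. Medians were 0.38 for the members, 0.39 for the GABA and interneuron subtype list, 0.28 for the pan-neuron list, -0.06 for the mitral and tufted cell list and -0.01 for the microglia list.

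Markers of other cells were checked in the same fit. Of 7 oligodendrocyte genes 1 was called, Mog (0.77, edgeR FDR = 0.0335), where 4.33% of all genes were called higher. All 7 were above 0 with a median of 0.38, equal to that of the members. Their sum was 231.4 to 427.9 CPM in WT and 282.6 to 413.6 in knock-in libraries. The 7 astrocyte genes had a median of -0.23 and 0 calls, with Gfap at -0.43 (FDR = 0.0651). The precursors of oligodendrocytes (0.28), olfactory ensheathing cells (-0.20), endothelial cells (-0.16), pericytes and fibroblasts (-0.17) and border macrophages (0.11) had 0 calls each, with the median log2 fold change of each list in parentheses. The part of these cells in the values of the members was not tested.

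The 9 genes varied together from library to library. Over the 16 libraries Pearson's r between log2 CPM values had a median of 0.81 over the 36 pairs of members, with a range of 0.35 to 0.96, given as a description. Dlx5 stood out, with 0.35 to 0.59 in its 8 pairs against 0.69 to 0.96 in the other 28. The highest was that of Dlx1 and Meis2. All points share a library, so depth and composition of the isolate are common to both axes. Against the mean of the other 8, r ran from 0.53 for Dlx5 to 0.96 for Tshz1.

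A family of 6 relations was computed. For neighbours at a locus r was 0.80 for Dlx1 and Dlx2 (Spearman's rho = 0.81, permutation p = 0.00016 and 0.00024, adjusted 0.00032 and 0.00048). It was 0.59 for Dlx5 and Dlx6 (rho = 0.57, permutation p = 0.0177 and 0.0236, adjusted 0.0266 and 0.0354). The 28 pairs of members without Dlx5 had a median r of 0.83, and Dlx5 with Th had 0.57, so such values were not particular to neighbours. Without the 2 libraries farthest from the median of Dlx1 or Dlx5 r was 0.74 and 0.72. Within WT and knock-in libraries r was 0.64 and 0.90 for Dlx1 and Dlx2, and 0.52 and 0.63 for Dlx5 and Dlx6. Within replicates 1 and 2 and within replicates 3 and 4 it was 0.93 and 0.72 for the former pair and 0.88 and 0.38 for the latter. Th and Ddc gave r = -0.21 (rho = -0.21, permutation p = 0.457 and 0.432, adjusted 0.457 and 0.518). For this pair r was -0.52 within WT and 0.54 within knock-in libraries, and 0.52 without the 2 libraries farthest on Th. With such changes of sign and only 2 to 13 counts of Ddc per library, no relation could be read. Th followed the mean of the other 8 members with r = 0.90 (rho = 0.88), 0.84 within WT, 0.87 within knock-in libraries, 0.94 in replicates 1 and 2 and 0.83 in replicates 3 and 4.

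The mean of the members followed the pan-neuronal mean with r = 0.85 (rho = 0.90), and r was 0.85 without the 2 farthest libraries, 0.82 within WT and 0.77 within knock-in libraries, and 0.89 and 0.82 within the same 2 sets of replicates. Against the mean of the mitral and tufted cell list r was 0.22 (rho = 0.12), turned to -0.25 without 2 libraries, and was 0.39 within WT, -0.08 within knock-in libraries, and 0.25 and 0.15 within the sets of replicates. These 3 relations involve a score over members and are given without a p. The 10 tested genes most like the mean of the members were Stox2, Pcdh9, Kcnj3, Celf4, Amph, Negr1, Atp2b4, Adarb2, Camta1 and Arpp21, with r between 0.97 and 0.98 over 16 libraries. Their log2 fold changes lay between 0.33 for Celf4, which is also in the pan-neuronal list, and 0.70 for Pcdh9. The 10 were picked by their r with a mean that itself differs between the genotypes. Fold changes above 0 are thus partly built into the choice.

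**Figure D4:**
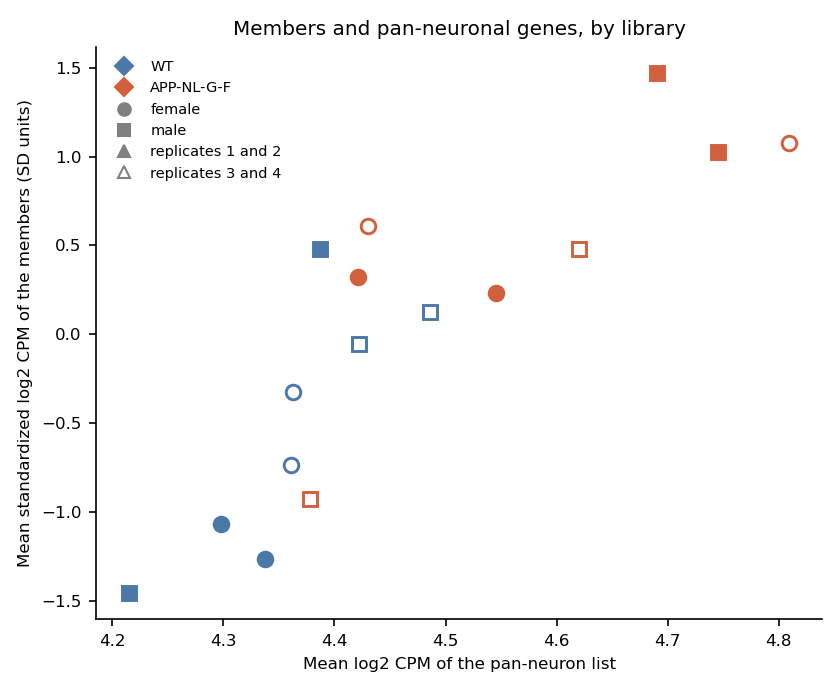
Mean standardized log2 CPM of the 9 members (y axis, SD units) against the mean log2 CPM of 12 pan-neuronal genes (x axis) in 16 libraries. Blue is WT, orange APP-NL-G-F, circles females and squares males, filled for replicates 1 and 2 and open for replicates 3 and 4. The points rise together (r = 0.85), with WT male replicate 2 lowest at -1.46 and APP-NL-G-F male replicate 2 highest at 1.47, and with APP-NL-G-F male replicate 3 at -0.93 among the WT libraries.

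With the pan-neuronal mean as a term in the fit, 0 of 9 members were called, 0 had an unadjusted edgeR p below 0.05 and 70 genes were called in all, 0.0658% of all genes as higher. The median of the members was then 0.07, with Dlx6 at 0.33 (FDR = 0.699) and Meis2 at 0.18 (FDR = 0.793). Because the term itself differs between the genotypes, this fit removes part of any genotype difference that neurons share.

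The labels number the libraries, and replicates 1 and 2 carry the numbers 1 to 8 while replicates 3 and 4 carry 9 to 16. In replicates 1 and 2 alone 4 of 9 members were called, Dlx1 (0.55, edgeR FDR = 0.0230), Dlx6 (1.01, FDR = 0.00709), Meis2 (0.94, FDR = 0.00106) and Th (0.59, FDR = 0.0196), with a median of 0.51, and 8.10% of all genes were called higher. In replicates 3 and 4 alone 0 were called and 1 had an unadjusted p below 0.05, with a median of 0.26, Dlx6 at 0.48 (FDR = 0.696) and Meis2 at 0.33 (FDR = 0.659), and 0.126% of all genes were called higher. The calls thus fell across the whole table and not among the members alone. The difference between the 2 sets was not tested. With the set as a term 2 members were called, as without it.

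**Figure D5:**
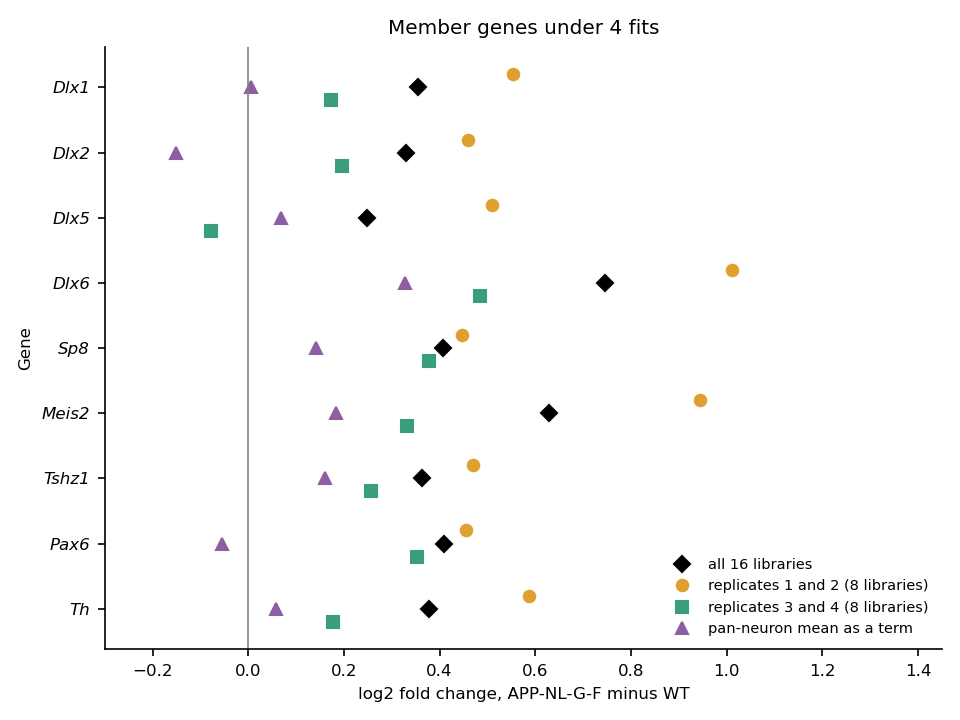
Log2 fold change of APP-NL-G-F against WT (x axis) for each member (y axis) in all 16 libraries (black), in replicates 1 and 2 (yellow circles), in replicates 3 and 4 (green squares) and with the pan-neuronal mean as a term (purple triangles). Every value from replicates 1 and 2 is above that from replicates 3 and 4, and with the term the values lie between -0.15 for Dlx2 and 0.33 for Dlx6.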

How the data were processed

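The deposited values are raw counts per gene, which the authors made with STAR on GRCm39 (GENCODE vM32) and did not normalize. The strand setting is not given in the sources used here. A gene entered the test if 8 or more of the 16 libraries held 5 or more counts of it (18227 of 57010 genes). Counts were scaled by TMM and tested with edgeR 4.0.16 (R 4.3.3) in a quasi-likelihood fit with sex as a term, the filter, thresholds and sex term being those of the study. Values within each sex and the interaction came from a fit of 4 groups. Log2 CPM values for permutations and correlations carried a prior count of 2, and correlations used 100000 permutations. DESeq2 1.42.0 and limma 3.58.1 were alternatives. The fits were tested on simulated data. Totals of 9052932 to 18117286 counts limit precision, mostly for Dlx2, Dlx5 and Dlx6. Sequences came from the GRCm39 genome with GENCODE vM39, which matched 96.84% of the rows. The members and gene lists were chosen with earlier results of these data known. Genes named are the members, the called genes of each list, up to 4 more per list with the highest CPM, the overlapping genes and the 10 genes most alike, and a few others were named after their values were seen. The cortical data of the study were not used here, and the values of a few listed genes are not reported here.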

Additional observations from a re-analysis of the deposited data

Results flagged for a closer look

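In groups of 4 libraries the gap between an extreme library and its nearest neighbour was divided by the range of the group and compared with the critical value of 0.829. This marked 6 of 104 groups, and chance marks about 1 in 20. WT male replicate 2 was far below the other WT males for Meis2 (ratio 0.938) and Pax6 (0.843). APP-NL-G-F female replicate 2 was far below the other APP-NL-G-F females for Sp8 (0.911). WT female replicate 2 had a high mean of the dopamine list (0.844). APP-NL-G-F male replicate 3 had a low mean of oligodendrocyte precursor genes (0.842), and APP-NL-G-F female replicate 1 a low mean of pericyte and fibroblast genes (0.838).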

How the results depend on the processing

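Dlx6 and Meis2 were called in all 16 fits that left out 1 library and in 12 of 14 other settings. Both calls were lost with the pan-neuronal mean as a term (0 members called, median log2 fold change 0.068) and in replicates 3 and 4 alone (0 called). The FDR alone passed 5 members, and replicates 1 and 2 alone gave 4. Calls over all genes moved too, from 1574 to 2503 in replicates 1 and 2 and to 80 in replicates 3 and 4. Without 1 library the count over both sexes ran from 2 to 4, with 4 without APP-NL-G-F male replicate 3 (2187 genes called in all), and the median from 0.33 to 0.47. In females 4 members were called with no filter on low counts and with females alone, where 2.82% and 3.84% of all genes were called higher. Without 1 library 1 to 4 members were called. The count was 1 without WT female replicate 1, WT female replicate 2 or APP-NL-G-F female replicate 3, where 0.615%, 0.953% and 0.758% of all genes were called higher. It was 4 without WT female replicate 4, where 6.75% were. In males the count ran from 0 to 1, with 1 without APP-NL-G-F male replicate 3, where all calls went from 46 to 603. The interaction called 0 members in every alternative run. With the pan-neuronal term the sign turned for Dlx2 (-0.15) and Pax6 (-0.055), and in replicates 3 and 4 alone for Dlx5 (-0.078). Apart from the pan-neuronal term and the subsets named, whose causes were not tested, the other alternatives kept the sign of every member. With a replicate block 2 members were called over both sexes and the median was 0.38. Same-numbered libraries of the 2 genotypes correlated in their deviations between -0.33 and 0.13, with 2 of 8 pairs over 0.1. Differently numbered libraries were not compared in this way, so whether the numbers pair the libraries was not tested. The limits are the depth of Dlx2, Dlx5 and Dlx6, with as few as 19 counts in a library, and the 4 libraries per group.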
